A study of Mus musculus with 8 samples.

Results

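The genes described here are 10 phase I enzymes of mouse lung, out of 33027 genes measured. They were chosen by name, with the values of earlier work on the same data known, and the choice rested on a rise of Ephx1 in capillary cells. They are 4 cytochrome P450s (Cyp2f2, Cyp4b1, Cyp2b10 and Cyp2s1), their electron donor Por, the flavin-containing monooxygenases Fmo1 and Fmo2, the microsomal epoxide hydrolase Ephx1, the carbonyl reductase Cbr2 and the aldehyde dehydrogenase Aldh1a1. All 10 were found among the measured genes.

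Phase I enzymes oxidise, reduce or hydrolyse foreign compounds and some of the cell's own lipids, which prepares them for conjugation. A P450 receives its electrons from cytochrome P450 reductase, the product of Por, and the epoxides that P450s can form are opened to diols by epoxide hydrolase. Club cells of the airway are known for a high content of P450s, and the lung capillary bed holds general capillary (gCap) cells and aerocytes, the latter spread thinly over the alveoli.

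Single-cell RNA was sequenced from right lungs of 8 Sftpc-CreERT2-mTmG mice on a C57BL/6 background, in which tamoxifen switches a reporter to green in cells that express Sftpc. All mice, controls included, received tamoxifen at 8 to 10 weeks of age, and 2 weeks later 4 of them began 10 months of exposure to cigarette smoke (CS) for 6 hours a day on 5 days a week, while the other 4 breathed room air (RA). Lungs were taken 1 day after the last exposure, and cells were sorted on CD45 and mixed at 10% positive to 90% negative before loading, so that the proportion of immune cells was set by the mixing. Each of 4 sequencing lanes held 1 CS and 1 RA mouse.

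The files held 41106 cells, of which 40074 in 32 cell types named by the authors were used after multiplets were left out. Mice gave 2553 to 6371 cells each and 31094695 to 52753531 UMIs (unique molecular identifiers, which count molecules), with a median of 4254 to 6473 UMIs per cell. Of the cell barcodes, 197 occurred in more than 1 library. The 4 CS libraries went against their sex labels: both labelled male held Xist at 7.83 and 8.34 transcripts per 10,000, and both labelled female held Ddx3y at 0.925 and 1.08. Each group still had 2 libraries of each kind. Sex was not used, so the spread within a group also holds any difference between these kinds. The types labelled EC_capillary_A and EC_capillary_B are called aerocytes and gCap cells here: Car4, Ednrb and Apln were highest in the former, and Gpihbp1, Plvap and Aplnr in the latter. Among airway types, Foxj1 was highest in ciliated cells, Muc5b in goblet cells and Scgb1a1 in club cells, but the club marker Scgb3a2 was higher in goblet cells, at 246 against 89.6.

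Levels are transcripts per 10,000, averaged over the cells of a type within each mouse and then over mice. Levels of different genes are not compared, since the values are not per length. As levels are shares of a cell's transcripts, their order by type is not one of molecules per cell. Scgb1a1 alone was at 3986 in club and 3440 in goblet cells. The median UMIs per cell were 32786 in club, 35093 in goblet and 9394 in basal cells, and basal cells numbered 10 to 37 a mouse. Because the cell types were made from the same cells and genes, the levels by type are a description without a test. The SD over all 8 mice also holds any difference between CS and RA, so steps are also given within a group where that changes whether they exceed the spread. The level of B cells, which are not known for these enzymes, is given as a low reference. For Ephx1 that reference is not the lowest level, since B cells were at 0.412 but T cells at 0.126 and classical monocytes at 0.0223.

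Cyp2f2, Cyp2b10 and Cyp2s1 were highest in different epithelial types. Cyp2f2, the naphthalene-activating P450 of club cells, was at 68.7 ± 8.54 in basal cells (SD, n = 8 mice), 59.1 ± 6.00 in club cells, 58.7 ± 9.20 in goblet cells and 25.02 ± 5.12 in ciliated cells. Club and goblet cells did not differ beyond their spread, and goblet cells were the higher of them in RA (62.97 and 57.5) and club cells in CS (60.8 and 54.4). Basal cells stood above the next type by more than the SD over all mice and in CS, but not in RA, while the step from goblet to ciliated cells was larger than the SD. Endothelial types lay between 0.262 and 0.356, close to the 0.332 of B cells. Cyp2b10, a P450 inducible through the receptor CAR in liver, was highest in AT1 cells at 20.7 ± 5.26, followed by ciliated cells at 6.14 ± 0.713 and club cells at 2.38 ± 0.449. In RA mice AT2 cells, at 2.67 ± 1.64, were above club cells, at 2.31 ± 0.601, though not beyond the spread. RA mouse 1 had 5.119 in AT2 cells and the other RA mice 1.761 to 1.969. Cyp2s1, a P450 of epithelia, was at 13.1 ± 1.62 in ciliated cells while club cells, at 2.56 ± 0.466, and mesothelium, at 2.30 ± 0.396, did not differ beyond their spread over all mice, although in CS mice alone the step (2.75 ± 0.414 and 2.26 ± 0.380) did. Its level in B cells was 0.0912.

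Cyp4b1, a P450 that acts on fatty acids and furans, was found in both the alveolar wall and the airway. It was highest in aerocytes at 24.5 ± 3.45, then in AT1 cells at 16.1 ± 7.58, in gCap cells at 7.46 ± 1.24 and in ciliated cells at 6.07 ± 0.522, each step exceeding the larger SD. In RA mice alone aerocytes (25.7 ± 3.80) and AT1 cells (20.2 ± 9.29) did not differ beyond their spread. Arterial endothelium, at 4.77 ± 0.602, and club cells, at 4.45 ± 0.975, did not differ beyond their spread. B cells held 0.293.

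The flavin monooxygenases, which oxidise nitrogen and sulfur atoms with the help of FAD, were highest in different types. Fmo1 was highest in aerocytes at 12.1 ± 2.39, then in gCap cells at 6.97 ± 1.13, arterial cells at 5.74 ± 0.967 and venous cells at 3.84 ± 0.660. It was at 2.90 ± 1.60 in cells labelled erythrocytes and at 0.375 ± 0.162 in lymphatic endothelium. Its level in ciliated cells was 0.0234, below the 0.167 of B cells. Fmo2, the main FMO of the lung in most mammals, was highest in mesothelium at 39.7 ± 7.58, followed by alveolar fibroblasts at 29.8 ± 6.76, peribronchial fibroblasts at 20.9 ± 11.1 and adventitial fibroblasts at 12.0 ± 6.13. Over all mice only the step from mesothelium to alveolar fibroblasts exceeded the spread in this order, in CS mice that from alveolar to peribronchial fibroblasts did too, and in RA mice neither did. Of the endothelial types, arterial cells had the most Fmo2, at 7.05 ± 1.65. Airway cells also held Fmo2, at 8.90 ± 2.28 in basal, 4.55 ± 0.506 in club and 3.36 ± 0.770 in goblet cells, against 0.109 in B cells. Fmo1 and Fmo2 lie next to each other, 7.7 kb apart on chromosome 1, but their levels over the 32 types had a Pearson r of only 0.20 on the log2 scale.

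Por was highest in club cells at 12.3 ± 2.48 and goblet cells at 11.3 ± 3.60, which did not differ beyond their spread (club cells were the higher in RA, at 11.4 and 8.47, and goblet cells in CS, at 14.1 and 13.3). Ciliated cells, at 5.90 ± 1.09, and alveolar fibroblasts, at 5.39 ± 0.392, came next, and aerocytes and gCap cells, which hold Cyp4b1, were at 1.05 ± 0.139 and 1.18 ± 0.307. B cells held 0.510. Cbr2, a carbonyl reductase of lung, marked conducting airway and AT2 cells: club cells had 66.4 ± 5.90, basal cells 59.6 ± 18.4, ciliated cells 50.7 ± 4.11, goblet cells 48.5 ± 7.99 and AT2 cells 36.8 ± 5.68, of which only the step from goblet to AT2 cells exceeded the spread. AT1 cells, at 0.512 ± 0.384, were near the 0.360 of B cells. Aldh1a1, which oxidises retinal and aldehydes from lipid peroxidation, was at 22.6 ± 6.55 in ciliated cells, 18.1 ± 2.97 in goblet cells, 15.8 ± 4.42 in club cells and 14.6 ± 1.71 in alveolar fibroblasts. In CS mice ciliated cells (28.2 ± 2.64) stood above goblet cells (16.8 ± 1.78) by more than the spread, and in RA mice goblet cells (19.3 ± 3.64) and ciliated cells (16.99 ± 3.02) were not apart beyond it. Both capillary types, at 0.165 and 0.185, lay at the B cell level of 0.186.

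Ephx1, which opens epoxides to diols, had no single site. Mesothelium had 1.76 ± 0.194, aerocytes 1.46 ± 0.608, basal cells 1.42 ± 0.604, ciliated cells 1.41 ± 0.176, arterial cells 1.37 ± 0.284, gCap cells 1.22 ± 0.427 and club cells 1.15 ± 0.277. The order differed between the groups, and the 2 capillary types had been used in choosing the genes. In CS mice aerocytes came first at 1.99 ± 0.309, before mesothelium, basal cells and gCap cells, and no neighbours among the first 9 types differed beyond the spread. In RA mice mesothelium came first at 1.696 ± 0.0837, above ciliated cells at 1.29 ± 0.155 by more than the spread, and both capillary types, at 0.926 ± 0.132 and 0.844 ± 0.0911, stood below ciliated, arterial, venous, club and goblet cells. Goblet cells, at 0.959 ± 0.134, and club cells, at 0.979 ± 0.283, were not apart from either capillary type beyond the spread. Venous cells, at 1.05 ± 0.116, were not apart from aerocytes beyond it.

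**Figure D1:**
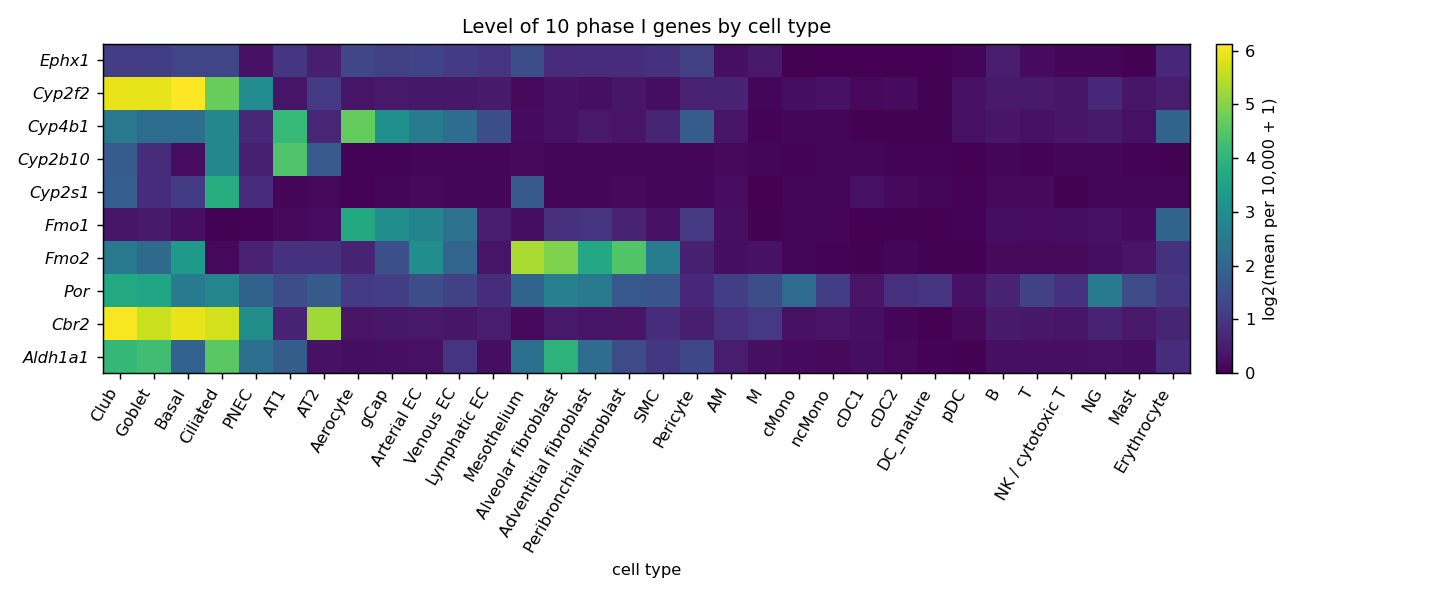
Level of the 10 genes (rows) in the 32 cell types (columns), as log2 of the mean over mice of the transcripts per 10,000 plus 1, with brighter colours for higher levels. Cyp2f2 and Cbr2 are brightest in club, goblet, basal and ciliated cells, Fmo1 in endothelium, Fmo2 in mesothelium and fibroblasts, and Cyp4b1 in aerocytes and AT1 cells.

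The genes most like each member over the 32 types, out of 7615 genes with a level of at least 1 in some type, were found by Pearson's r on the log2 scale. They share the libraries and the cell annotation with the members, so r is a description. Cyp2f2 was most like Gpx2 (r = 0.98), Cyp2b10 most like Slc6a14 (0.98), Cyp2s1 most like Gm29266 (0.96), Cbr2 most like Wfdc2 (0.97), Fmo1 most like Ly6c1 (0.97) and Aldh1a1 most like Fam13a (0.92). Lower values were found for Cyp4b1 with Galnt18 (0.89), Por with Mgst1 (0.88), Fmo2 with Ptprd (0.86) and Ephx1 with Ptprk (0.86). Within the 10, the closest pair was Cyp2f2 with Cbr2 (0.92), and Aldh1a1 stood second among the genes most like Por (0.80).

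By position (GRCm38, GENCODE gene spans), Ephx1 lies on chromosome 1 from 180976210 to 181020904, Fmo1 on chromosome 1 from 162829561 to 162866610 and Fmo2 from 162874317 to 162898726. Cyp2s1, Cyp2b10 and Cyp2f2 lie on chromosome 7 from 25802475 to 25816913, from 25897620 to 25926624 and from 27119909 to 27133660, in the mouse Cyp2 gene cluster. The neighbours Cyp2s1 and Cyp2b10, 80.7 kb apart, had different places, ciliated and AT1 cells. Cyp4b1 is on chromosome 4 from 115624725 to 115647723, Por on chromosome 5 from 135670033 to 135735326, Cbr2 on chromosome 11 from 120729489 to 120732114 and Aldh1a1 on chromosome 19 from 20492715 to 20643465. Of the 98-base stretches of each transcript, the read length, 7.21% of those of Cbr2 (14.6% of its last 500, towards the 3′ end) also occur in some other gene. For Cyp4b1 the share was 4.68%, and reads in such stretches could be split. The gene sharing the most was Gm11771 for Cbr2 and the pseudogene Cyp4b1-ps1 for Cyp4b1. For Aldh1a1 0.133% were shared, with Aldh1a7 sharing the most, and for Cyp2b10 0.110%. The other 6 shared none.

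Promoters were read for 9 of the 10 members from RefSeq (GRCm38.p6). In the 250 bases before the start, the core of the aryl hydrocarbon response element, GCGTG, was searched on both strands and found in 28.2% of 32851 mouse promoters, and in those of Cyp2b10 and Por. The antioxidant response element core TGACNNNGC, also on both strands, was found in 10.2% of promoters and in none of the 9. These letters say nothing on binding in these cells. The windows of Ephx1 and Cyp4b1 are shown as those of the members whose level in CS was most often higher (Ephx1, 12 of 13 types besides the capillary types used in the choice) and lower (Cyp4b1, 14 of 15 types, 2 of which reached the filter in RA only), and that of Por for its 3 matches to GCGTG, in capitals (CACGC where on the other strand). They lie at chr1:181017570-181017819 (minus strand), chr4:115647722-115647971 (minus strand) and chr5:135688895-135689144 (plus strand). The RefSeq starts of Ephx1 and Por fall inside the gene spans given above, at a downstream start.
Ephx1: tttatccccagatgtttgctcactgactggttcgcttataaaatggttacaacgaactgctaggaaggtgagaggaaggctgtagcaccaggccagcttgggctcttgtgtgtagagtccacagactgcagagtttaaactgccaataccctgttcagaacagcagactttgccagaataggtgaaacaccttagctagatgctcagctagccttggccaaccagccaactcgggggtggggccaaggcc
Cyp4b1: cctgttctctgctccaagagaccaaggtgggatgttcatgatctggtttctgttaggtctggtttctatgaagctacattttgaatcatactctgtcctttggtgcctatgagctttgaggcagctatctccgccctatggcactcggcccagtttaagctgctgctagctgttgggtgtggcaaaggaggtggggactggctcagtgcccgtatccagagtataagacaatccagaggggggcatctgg
Por: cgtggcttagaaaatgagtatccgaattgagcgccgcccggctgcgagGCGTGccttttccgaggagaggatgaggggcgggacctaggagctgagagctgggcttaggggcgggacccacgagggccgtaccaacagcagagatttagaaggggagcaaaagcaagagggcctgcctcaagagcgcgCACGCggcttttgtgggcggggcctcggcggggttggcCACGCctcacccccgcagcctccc

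In capillary cells, Ephx1 was higher in smoke in every mouse. This rise was what the choice of genes used, so it is given without a test. In gCap cells, CS mice 1 to 4 had 1.89, 1.503, 1.52 and 1.49 transcripts per 10,000, and RA mice 1 to 4 had 0.893, 0.805, 0.737 and 0.942. The groups did not overlap, and their means were 1.60 ± 0.194 and 0.844 ± 0.0912 (SD, n = 4 each), a ratio of 1.90. Aerocytes of CS mice 1 to 4 had 1.96, 2.41, 1.68 and 1.89, and those of RA mice 1.09, 0.981, 0.814 and 0.824. These groups did not overlap either, with a ratio of means of 2.14. On the scale of log2(level + 1), which understates changes of low genes, the differences were 0.49 in gCap cells and 0.63 in aerocytes, and in both types CS was higher in all 4 lanes. All CS mice lay above all RA mice for 13.6% of the genes tested in gCap cells and 8.71% in aerocytes, shares from which nothing is read here.

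The share of capillary cells with an Ephx1 transcript followed the same order. In gCap cells, at a median depth of 3833 UMIs, it was 38.6 to 55.1% in CS mice and 24.8 to 36.7% in RA mice. Reduced to 1000 UMIs per cell, the shares were 13.5 to 16.8% and 7.06 to 8.81%. Aerocytes, with a median of 4623 UMIs, had 14.5 to 20.3% in CS and 7.36 to 9.85% in RA at 1000 UMIs, against 40.5 to 57.8% and 25.7 to 32.0% at full depth. B cells, with a median of 4055 UMIs, had 2.12 to 4.4% in CS and 3.32 to 5.74% in RA at 1000 UMIs, against 13 to 20.2% and 14.2 to 21.7% at full depth, so both capillary types lay above B cells in each group.

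Transcripts that mark other cell types were measured in the same capillary cells. In gCap cells the club markers Scgb1a1 and Scgb3a2 summed to 6.37 to 8.35 in CS and 7.78 to 17.4 in RA, the AT2 markers to 0.357 to 1.21 and 0.191 to 2.55, and the goblet markers to 0.257 to 0.429 and 0.143 to 0.952. None of these 8 genes had a higher mean in CS, whereas the leukocyte gene Ptprc did, at 0.022 to 0.0465 against 0.0215 to 0.0457. In aerocytes both club markers were higher in CS, with sums of 0.935 to 22.7 against 0.105 to 9.19, as was Ptprc, at 0.0296 to 0.0483 against 0.00877 to 0.0177. Of the AT2 markers 1 of 3 was higher (sums of 0.287 to 1.37 against 0.124 to 1.73), and of the goblet markers 0 of 3 (0.123 to 0.302 against 0.139 to 0.758). The part of these transcripts in the Ephx1 values was not tested.

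Outside the capillaries, Ephx1 was higher in CS in 12 of the 13 other cell types tested. In none of them did the difference pass limma's adjusted p of 0.05, against 6 with an unadjusted p under 0.05. Such unadjusted p were common among all genes, so nothing is read from the 6. They numbered 2672 of 11077 in ciliated, 1506 of 11842 in goblet, 1200 of 11575 in club and 1173 of 7920 in arterial cells. All CS mice were above all RA mice in 5 of the 13, and in 6.01% of all gene and type pairs. Arterial endothelium of CS mice 1 to 4 had 1.85, 1.35, 1.65 and 1.501, and that of RA mice 1.30, 1.13, 1.09 and 1.06, so that the lowest CS mouse was just above the highest RA mouse. The difference of 0.27 ± 0.104 (log2, SE) had an adjusted p of 0.243 (limma). Goblet cells had 1.49, 1.27, 1.28 and 1.68 in CS and 1.13, 0.852, 0.854 and 0.998 in RA, which also did not overlap (0.31 ± 0.101, limma adjusted p = 0.242). The remaining 3 were AT2 cells (0.511 against 0.326), alveolar fibroblasts (0.805 against 0.575) and mesothelium (1.96 against 1.70), with limma adjusted p from 0.172 to 0.471. In mesothelium the fit left out CS mouse 1, with 9 cells, whose value of 1.44 was below all RA mice. Venous endothelium (1.16 against 1.05, limma adjusted p = 0.640) and lymphatic endothelium (0.904 against 0.889, limma adjusted p = 0.978) overlapped between the groups. Club cells, at 1.32 ± 0.141 against 0.979 ± 0.283, and ciliated cells, at 1.53 ± 0.0960 against 1.29 ± 0.155, had higher means in CS, but the groups overlapped (limma adjusted p = 0.409 and 0.143).

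**Figure D2:**
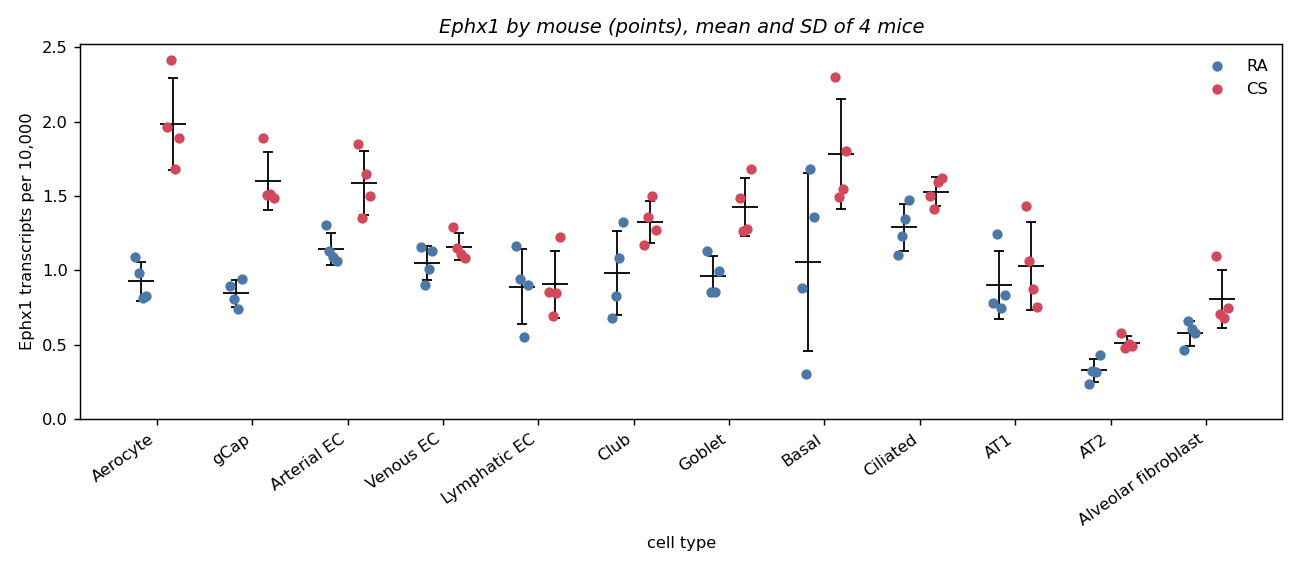
Ephx1 transcripts per 10,000 in 12 cell types, with 1 point per mouse (red, CS; blue, RA) and the mean with its SD as bars (n = 4 each). CS points lie above all RA points in aerocytes and gCap cells, and also in arterial, goblet and AT2 cells and alveolar fibroblasts, while venous and lymphatic cells overlap.

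Leaving Ephx1 in capillary cells aside, 149 pairs of a member and a cell type were tested over 22 types, and 4 of them passed the adjusted p of 0.05. Of all gene and type pairs, 1.23% passed. Of the pairs tested, 14 reached the filter of 10% of cells in 1 group only, 13 of them through the group with the higher mean, so their direction was set in part by the filter, and none of these was among the 4. The 4 pairs were Aldh1a1, Cyp2f2 and Fmo2, higher in ciliated cells of CS mice, and Cyp4b1, lower in gCap cells. In ciliated cells 3 of 9 members tested passed, against 4.63% of all genes (all CS mice above all RA mice for 9.28% and below for 6.65%), and in gCap cells 1 of the 6 members other than Ephx1, against 10.3% of all genes, which is near the background. These shares moved with single mice. Of 6556 genes in gCap cells limma called 672, but 0 with the lane as a block (2121 at an unadjusted p under 0.05) or without CS mouse 4 (1643 at such a p). Without CS mouse 1, CS mouse 3 and RA mouse 2 it called 29, 37 and 35. In ciliated cells 513 genes passed, 163 with the lane as a block and 106 to 470 when 1 mouse was left out, the fewest without CS mouse 4. With the lane as a block none of the 4 pairs passed, as given beside each.

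Aldh1a1 rose in ciliated cells. CS mice 1 to 4 had 30.5, 24.5, 28.4 and 29.4 transcripts per 10,000, and RA mice 1 to 4 had 14.1, 15.4, 20.9 and 17.6. The lowest CS value was above the highest RA value, and CS was higher in all 4 lanes. The means were 28.2 ± 2.64 and 16.99 ± 3.02 (SD, n = 4 each), a ratio of 1.66 and a log2 difference of 0.71 ± 0.121 (SE) with an adjusted p of 0.0139 (limma). With the lane as a block the adjusted p was 0.0549, and without CS mouse 4 it was 0.0534. At 1000 UMIs per cell, 84.0 to 89.8% of ciliated cells of CS mice and 67.5 to 77.6% of those of RA mice held the transcript, against 1.99% of B cells; at full depth the shares were at least 99.1% in every mouse, with a median of 15907 UMIs in ciliated cells and 4055 in B cells. The low Aldh1a1 level of B cells was at 0.175, 0.254, 0.270 and 0.291 in CS and 0.0895, 0.104, 0.164 and 0.136 in RA. It was tested there only because it reached the filter in CS (11.1% of cells, 6.57% in RA), so no test is given.

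In the secretory types the groups overlapped for Aldh1a1. Club cells had 16.1 ± 2.31 in CS and 15.4 ± 6.32 in RA (log2 0.13 ± 0.249, limma adjusted p = 0.886), and goblet cells 16.9 ± 1.78 and 19.3 ± 3.64 (-0.18 ± 0.246, limma adjusted p = 0.779). In club cells libraries with Xist had 10.05 to 15.43 Aldh1a1 and those with Ddx3y 17.24 to 23.22, while in goblet cells these kinds overlapped, which was not tested. Whether ciliated cells differed from club and goblet cells was tested by exact two-sided permutation of mice, as part of 10 such differences chosen after the values were seen. The CS minus RA difference was larger in ciliated than in club cells by 0.58 and than in goblet cells by 0.89 (log2), each with an exact p of 0.0286, the smallest that 4 against 4 mice allow, and 0.0953 after adjustment over the 10. None of the 10 differences passed after adjustment. AT1 cells had 2.93, 2.77, 3.21 and 2.75 in CS and 1.64, 1.84, 2.23 and 2.46 in RA, which did not overlap (0.37 ± 0.0956, limma adjusted p = 0.0541). All CS mice lay above all RA mice for 5.77% of genes in AT1 cells.

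Cyp2f2 was the second member higher in ciliated cells. The CS values were 35.4, 26.3, 27.5 and 26.6, and the RA values 19.7, 22.6, 20.5 and 21.8, so that CS mouse 1 was high within its group but all 4 lay above the RA mice. The means of 28.9 ± 4.32 and 21.1 ± 1.30 differed by 0.43 ± 0.103 on the log2 scale (limma adjusted p = 0.0427). With the lane as a block the adjusted p was 0.102, and the call was lost whichever mouse was left out, with adjusted p from 0.0511 to 0.0853. In club cells Cyp2f2 was at 60.8 ± 1.91 in CS and 57.5 ± 8.56 in RA (limma adjusted p = 0.845), and in goblet cells at 54.4 ± 9.33 and 63.0 ± 7.84 (limma adjusted p = 0.674). The difference in ciliated cells exceeded that in goblet cells by 0.64 (exact permutation p = 0.0286, 0.0953 adjusted) and that in club cells by 0.34 (exact permutation p = 0.0571, 0.143 adjusted).

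Club cell transcripts were measured in the same ciliated cells. Scgb1a1 was at 28.3 ± 10.8 in CS and 23.9 ± 10.8 in RA (limma adjusted p = 0.676), which is 0.399 to 0.904% of its club cell level in CS mice and 0.264 to 0.953% in RA mice. The corresponding figures for Cyp2f2 were 42.5 to 59.7% and 32.2 to 43.5%. For the goblet marker Scgb3a1, whose club cell level was itself lower in CS, they were 3.95 to 26.7% and 0.123 to 9.13%, and for Scgb3a2 0.642 to 1.66% and 0.367 to 1.24%. In each group the lowest share of Cyp2f2 was above the highest of these secretory transcripts. Scgb3a2 was at 0.988 ± 0.348 against 0.771 ± 0.621 (limma adjusted p = 0.560). Cbr2, another gene high in club cells, was in ciliated cells at 50.7 ± 1.67 against 50.8 ± 6.05 (log2 difference 0.00 ± 0.0859). The AT2 markers summed to 0.205 to 2.21 in CS and 0.157 to 0.59 in RA (3 of 3 higher in CS), the goblet markers to 0.225 to 1.1 and 0.0733 to 1.27 (1 of 3 higher), and Ptprc was at 0.00961 to 0.0221 and 0.0101 to 0.0337. The part of these transcripts in the ciliated cell results was not tested.

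Fmo2 also passed in ciliated cells, but at a level at which its transcript is barely present. The 4 CS mice had 0.134, 0.118, 0.117 and 0.114, and the RA mice 0.0551, 0.0571, 0.0944 and 0.0530, without overlap (log2 difference 0.07 ± 0.0152, limma adjusted p = 0.0259; 0.0655 with the lane as a block). The level of B cells was 0.109, so the CS values were near it. The call held only without CS mouse 2 or without RA mouse 3 (limma adjusted p from 0.0134 to 0.0793 over the 8 fits). In other types the Fmo2 means were higher or lower in CS without passing. In AT1 cells CS mice 1 to 4 had 0.331, 0.683, 0.581 and 0.507 and RA mice 1.27, 1.29, 0.529 and 1.41. RA mouse 3 lay within the CS range there, and the difference of -0.46 ± 0.118 missed the threshold (limma adjusted p = 0.0525). The limma adjusted p was 0.00196 without RA mouse 3, and 0.07555 to 0.1543 when any other mouse was left out. Peribronchial fibroblasts, with 3 mice a group, had its largest log2 difference, 13.4 against 26.5 (-0.81 ± 0.303, limma adjusted p = 0.479). RA mouse 1 had 45.62 there, while the other RA mice of the fit had 16.69 and 17.26 and the CS mice 9.464 to 17.25. Goblet cells had 3.89 against 2.83 (0.37 ± 0.174, limma adjusted p = 0.401). Alveolar fibroblasts had 26.0 ± 4.38 against 33.5 ± 7.02 (limma adjusted p = 0.210), with RA mouse 1 at 43.92 and the other RA mice at 28.79 to 31.51. Arterial cells had 7.69 ± 0.826 against 6.41 ± 2.14 (limma adjusted p = 0.512).

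Cyp4b1 fell in gCap cells. CS mice 1 to 4 had 6.00, 7.22, 6.46 and 5.92, and RA mice 1 to 4 had 8.58, 7.91, 8.38 and 9.19. The groups did not overlap, as for 11% of genes lower in CS in this type, and the means of 6.40 ± 0.597 and 8.51 ± 0.530 differed by -0.36 ± 0.0967 (log2, SE; limma adjusted p = 0.0449, and 0.0948 with the lane as a block). The call held only without CS mouse 2 or without RA mouse 1, the adjusted p over the 8 fits that left out a mouse being 0.0407 to 0.124. At 1000 UMIs per cell, 40.6 to 46.4% of gCap cells in CS and 50.8 to 54.4% in RA held the transcript (77.7 to 84.5% and 82.7 to 92.3% at full depth), against 2.15% of B cells (7.07% at full depth). Of the 6 marker genes of these cells 3 had lower and 3 higher means in CS. Of the 3 endothelial markers, Cldn5 was at 15.1 in CS against 21.5 in RA (limma adjusted p = 0.0350), Cdh5 at 14.8 against 11.5, without overlap (limma adjusted p = 0.0718), and Pecam1 at 15.7 against 14.8 (limma adjusted p = 0.535). Of the 3 gCap markers, Plvap was at 8.62 against 14.2 (limma adjusted p = 0.0203), Gpihbp1 at 11.1 against 13.6, without overlap (limma adjusted p = 0.122) and Aplnr at 0.768 against 0.480 (limma adjusted p = 0.188). With the lane as a block the calls of Cldn5 and Plvap were lost. The part of these marker differences in the Cyp4b1 result was not tested.

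In the other types Cyp4b1 was lower in CS in 13 of 14, none of them past the threshold. In 2 of them, alveolar fibroblasts and classical monocytes, it reached the filter in RA only. All CS mice were below all RA mice in 4.67% of gene and type pairs, and for Cyp4b1 in 5 of 15 types, gCap cells included. In AT1 cells the CS values were 12.9, 13.2, 9.98 and 11.7, and the RA values 34.1, 16.1, 14.9 and 15.6. RA mouse 1 was more than 2 times any other mouse (difference -0.63 ± 0.206, limma adjusted p = 0.119), in a type where 5.17% of genes had all CS mice below. Without that mouse the difference was -0.36 (limma adjusted p = 0.110). Goblet cells had 2.38, 2.68, 2.46 and 2.51 in CS and 5.23, 5.60, 3.39 and 3.82 in RA, a ratio of means of 0.556 (-0.63 ± 0.179, limma adjusted p = 0.183), where 1.28% of genes had all CS mice below. Ciliated cells, at 5.61 ± 0.139 against 6.54 ± 0.199 (limma adjusted p = 0.105), and adventitial fibroblasts, at 0.299 against 0.366 (limma adjusted p = 0.318), did not overlap either. Aerocytes, the cells with the most Cyp4b1, had 20.4, 21.8, 27.5 and 23.7 in CS and 20.5, 25.4, 28.0 and 29.0 in RA, and these overlapped (-0.13 ± 0.136, limma adjusted p = 0.560). The CS minus RA difference of gCap cells minus that of aerocytes was -0.23 (exact permutation p = 0.229, 0.327 adjusted over the 10), and the same measure against arterial, venous and lymphatic cells was -0.18, -0.03 and 0.03, with adjusted exact p of 0.285, 0.857 and 0.857.

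**Figure D3:**
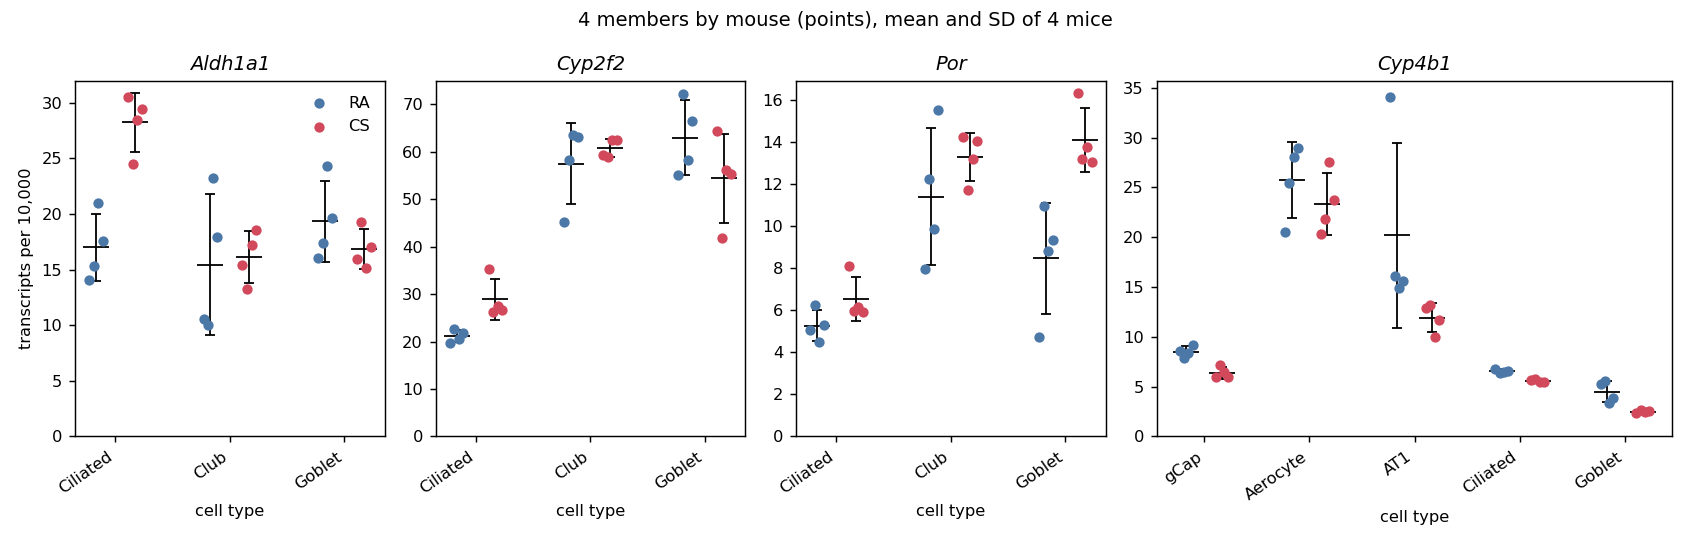
Transcripts per 10,000 of Aldh1a1, Cyp2f2, Por and Cyp4b1 in 3 to 5 cell types, with 1 point per mouse (red, CS; blue, RA) and the mean with its SD as bars (n = 4 each). CS points lie above RA points for Aldh1a1 and Cyp2f2 in ciliated cells and for Por in goblet cells, and below them for Cyp4b1 in gCap, AT1, ciliated and goblet cells.

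In the reported fit the other 5 members had no pair past the threshold. Por, which was tested in 22 types, was higher in CS in 11 and lower in 11. In goblet cells its CS values were 16.3, 13.2, 13.8 and 13.04 and its RA values 4.75, 10.97, 8.82 and 9.33. These did not overlap, with a ratio of means of 1.66, but the spread was wide (log2 0.72 ± 0.270, limma adjusted p = 0.313), and 7.24% of genes in goblet cells had all CS mice above. Club cells had 13.3 ± 1.16 against 11.4 ± 3.27 (limma adjusted p = 0.701), and AT1 cells 1.42 ± 0.244 against 2.04 ± 0.349 (limma adjusted p = 0.0896). The AT1 difference passed without RA mouse 3 (limma adjusted p = 0.04426), and leaving out any other mouse gave 0.1035 to 0.2155. Por in gCap cells was at 1.01 ± 0.108 against 1.34 ± 0.370 (limma adjusted p = 0.154).

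Of the 13 types tested for Fmo1, the endothelial member, only arterial cells had groups that did not overlap. CS mice 1 to 4 had 6.77, 6.33, 6.25 and 6.90, and RA mice 5.45, 4.99, 4.95 and 4.24, without overlap (0.36 ± 0.128, limma adjusted p = 0.203). In that type 4.32% of all genes had all CS mice above all RA mice. Cells labelled erythrocytes, 6 to 22 a mouse, were too few for the fit. Their Fmo1 was at 4.25 ± 0.955 in CS and 1.55 ± 0.481 in RA, without overlap, and was not tested. In the capillaries the groups overlapped: aerocytes had 13.1 ± 1.40 against 11.1 ± 2.91 (limma adjusted p = 0.347), and gCap cells 7.41 ± 0.892 against 6.53 ± 1.30 (limma adjusted p = 0.390). In aerocytes libraries with Xist had 7.663 to 12.61 Fmo1 and those with Ddx3y 13.2 to 14.73, while in gCap cells these kinds overlapped. This was seen afterwards and was not tested. Venous cells, at 3.82 ± 0.427 and 3.86 ± 0.912, differed by 0.00 ± 0.138 (limma adjusted p = 0.995).

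Cyp2b10 was lower in CS in 5 of the 6 types tested. In AT1 cells it was at 17.7 ± 2.04 against 23.8 ± 5.94 (-0.39 ± 0.154, limma adjusted p = 0.203), with RA mouse 1 at 32.28 and the other RA mice at 19.32 to 23.5. AT2 cells had 2.08 against 2.67, with RA mouse 1 at 5.119 and the other RA mice at 1.761 to 1.969. Mesothelium had 0.0643 against 0.102, with RA mouse 1 at 0.2546 and the other RA mice at 0.02327 to 0.06627. In both of these types the lower CS mean rested on RA mouse 1. In ciliated cells Cyp2b10 was at 5.76, 5.88, 5.31 and 5.72 in CS against 6.16, 5.95, 6.81 and 7.55 in RA, without overlap but without passing (limma adjusted p = 0.189). Cyp2s1 in ciliated cells, its main site, was at 13.1 ± 1.001 in CS and 13.03 ± 2.26 in RA (0.02 ± 0.118, limma adjusted p = 0.944). For Cbr2, in club cells the means were 67.8 ± 3.13 and 65.0 ± 8.13 (limma adjusted p = 0.881) and in AT2 cells 39.1 ± 5.63 and 34.5 ± 5.45 (limma adjusted p = 0.821). Its largest log2 difference was in alveolar macrophages, 1.09 ± 0.424 against 0.460 ± 0.270 (0.51 ± 0.153, limma adjusted p = 0.171). Several transcripts of other cell types also had higher means in these macrophages of CS mice. Among them were Sftpa1 at 1.19 against 0.340, Scgb1a1 at 8.48 ± 11.86 against 2.32 ± 1.309 and Cdh5 at 0.901 against 0.212. Scgb1a1 (21.9% of cells in CS, 9.58% in RA) and Cdh5 (15.7% and 7.92%) reached the filter in CS only, so nothing is read from their direction. The part of these transcripts in the Cbr2 values was not tested.

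Basal and neuroendocrine cells were too few for the fit across genes, and the members were compared there by exact two-sided permutation, 20 tests in all. None passed after adjustment, the smallest adjusted p being 0.571, and the 3 against 3 mice of the neuroendocrine cells allow no p below 0.10. Basal cells of CS mice had 73.1 ± 5.06 Cyp2f2 and those of RA mice 64.3 ± 9.65 (exact p = 0.2), 2.62 ± 0.715 and 4.64 ± 2.56 Cyp4b1 (exact p = 0.0857), and 1.78 ± 0.370 and 1.05 ± 0.599 Ephx1 (exact p = 0.0857). RA mouse 1, with 10 basal cells, had 8.437 Cyp4b1 and the other RA mice 3.135 to 3.816. Fmo1 had an exact p of 0.0286 in basal cells, at 0.303 ± 0.140 against 0.0668 ± 0.0476, around the B cell level of 0.167.

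**Figure D4:**
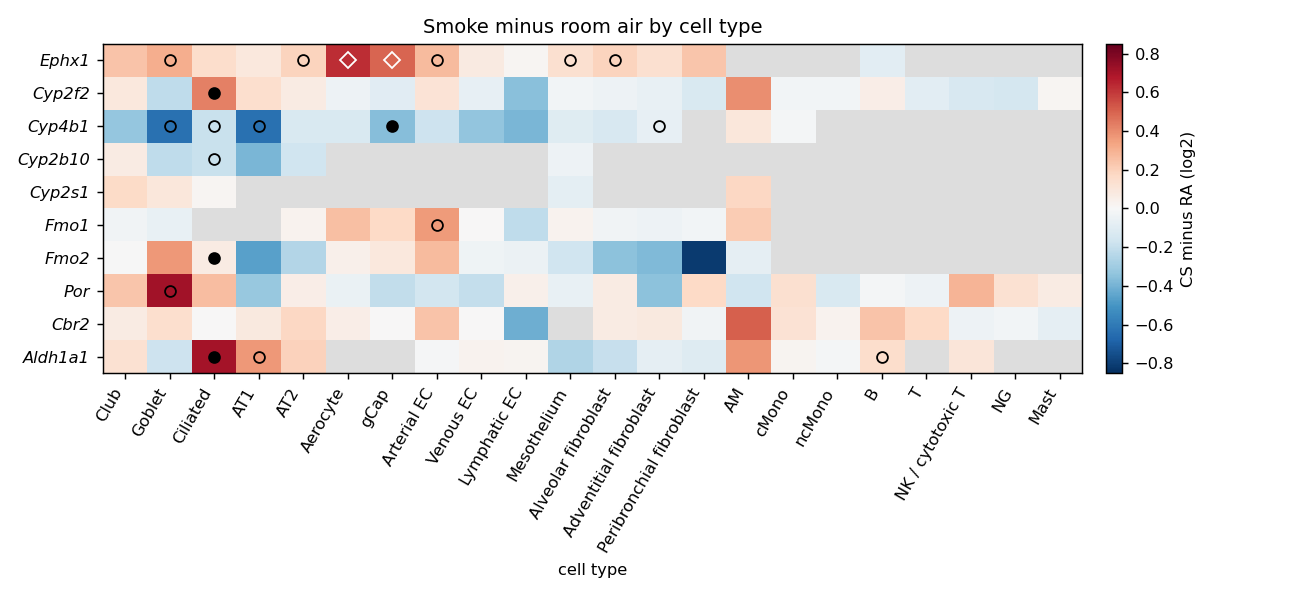
CS minus RA difference of log2(mean transcripts per 10,000 + 1) for the 10 genes (rows) in 22 cell types (columns); red is higher and blue lower in CS, and grey was not tested because the gene was in fewer than 10% of cells. Filled circles mark the 4 pairs with a limma adjusted p under 0.05, open circles pairs whose groups did not overlap, and white diamonds Ephx1 in capillary cells, which was not tested; the row of Ephx1 is mostly red and that of Cyp4b1 mostly blue.

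A list of 80 other genes held phase I enzymes, their electron donors and partners, and some nuclear receptors. Of its genes, 677 gene and type pairs were tested and 10 passed, 7 higher and 3 lower in CS. This share was near the 1.23% of all gene and type pairs. With the lane as a block 4 of the 10 passed. The call of Cyp1b1 in goblet cells, counted in the 7 and in the 4, reached the filter of 10% of cells in CS only. Its direction was thus set in part by the filter, and the other 9 reached it in both groups. When 1 mouse was left out, Aldh1a7 in ciliated cells passed in 8 of 8 fits and the other calls in 0 to 4 of 8. In airway cells those that passed in both the test and the filter of each group were higher, and Cyp1b1 is not counted in this direction. Cyp2a5, a coumarin hydroxylase, was at 1.53 ± 0.117 in club cells of CS mice and 0.650 ± 0.231 in those of RA mice (0.63 ± 0.0938, limma adjusted p = 0.0259). In the same club cells the goblet markers Scgb3a1, at 4.39 against 32.2 (limma adjusted p = 0.0268), and Muc5b, at 0.572 against 2.47 (limma adjusted p = 0.0321), were lower in CS without overlap, while Bpifb1 was at 0.925 against 0.792 and the club marker Scgb1a1 at 3949 against 4024, and their part in the Cyp2a5 result was not tested. Cyp1b1, a target of the aryl hydrocarbon receptor, was at 0.169 ± 0.0434 against 0.0168 ± 0.0211 in goblet cells, and its transcript was in 39.5% and 7.12% of the cells. Since it was tested only through the group where it was high, these values are given without a test. Ciliated cells had Aldh1a7, a close relative of Aldh1a1, at 1.09 ± 0.0537 against 0.644 ± 0.0599 (0.35 ± 0.0375, limma adjusted p = 0.00258), and Cyb5b, a cytochrome b5, at 0.832 ± 0.0828 against 0.631 ± 0.0487 (limma adjusted p = 0.0413, and 0.103 with the lane as a block). The calls numbered 1 of 56 list genes tested in club cells, where 0.199% of all genes passed. In ciliated cells they numbered 2 of 50, which is near the 4.63% of all genes there. The only call among 54 list genes in goblet cells was Cyp1b1, so nothing is read from it against the 0.177% of all genes.

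In endothelium 3 pairs of the list passed. Aldh2, the mitochondrial aldehyde dehydrogenase, was lower in gCap cells, at 6.24 ± 0.449 against 10.97 ± 3.06 (-0.70 ± 0.158, limma adjusted p = 0.0319, and 0.0679 with the lane as a block), and Cyp4f13 was slightly higher there, at 0.399 against 0.281 (limma adjusted p = 0.0478, and 0.0970 with the block). Cyb5r3, the reductase of cytochrome b5, was lower in aerocytes, at 1.03 ± 0.111 against 1.79 ± 0.401 (-0.45 ± 0.0907, limma adjusted p = 0.0370). The list had 2 calls among 21 genes tested in gCap cells, near the 10.3% of all genes that passed there, and 1 among 24 in aerocytes (1.96%), and none of the 29 in arterial (0.669%), 31 in venous (0.13%) or 24 in lymphatic cells (0%) passed. The remaining 3 calls were Aldh2 lower in AT1 cells and Cyp7b1 and Ces1d higher in adventitial fibroblasts, with limma adjusted p of 0.0700, 0.0528 and 0.0995 once the lane was a block. Ces1d passed in 0 of the 8 fits that left out a mouse.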

How the data were processed

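Lungs of 8 mice (4 CS, 4 RA) were profiled by droplet single-cell RNA-seq. Per the submitters' processing notes and the study's methods, the authors aligned reads with STAR 2.7.3a (STARsolo) to GRCm38.p6, counted UMIs, filtered cells on depth, unspliced and mitochondrial share, and removed free RNA with SoupX. The deposited matrix, though named normalized, holds estimated counts of UMIs after that removal: 1.28% of its values are whole (within 1e-06), and the column sums equal the total deposited for each of 41106 cells. The cell table gives the authors' cell types, and the deposited percent of mitochondrial transcripts was read as a quality value only. The 1025 cells the authors labelled multiplets and 7 labelled cell cycle were left out. No further doublet caller was run.

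Counts were scaled to 10,000 per cell and averaged over the cells of a type in a mouse, so that n counts mice. Mice with at least 20 cells of a type entered its fit, and 22 types with at least 2 such mice a group were tested in limma 3.58.1 (R 4.3.3; eBayes with trend, two-sided) on log2(mean + 1), with genes kept where 1 group had transcripts in 10% or more of its cells, and adjusted by Benjamini-Hochberg over all genes of the type and a threshold of 0.05. Since the values are corrected estimates, no count model was used. Levels used mice with at least 5 cells of a type. Basal and neuroendocrine cells, and differences between types, were compared by exact permutation (70 assignments of 4 against 4, smallest p 0.0286). Shares of cells at 1000 UMIs are expected values of thinning, and shallower cells were not present, the smallest total being 1001. Intervals from counting were not computed, since the spread between mice holds counting error. The fit was checked on simulated data. Gene spans are of GENCODE M21.

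The labels put 1 CS and 1 RA mouse in each of 4 lanes, which pairs them by lane. Deviations of same-lane mice from their group means correlated from -0.27 to 0.39 over genes, and not every pair was above 0.1 in any type. Lane was used as a block in an alternative only. The members and lists were chosen with earlier results of these data known. Named genes were all members, the 3 genes most like each by r over cell types, and the genes of the list of 80 that passed in endothelial or airway types. The 3 calls in other types were named after their values were seen. Alternatives were a pseudocount of 0.1, no filter on low genes, a filter of 25% of cells, summed UMIs, centring on the median, at least 10 cells, the lane block and leaving out each mouse. Proteins of the members were not analysed here. Other software was Python 3.11.15, numpy 2.4.6, pandas 2.3.3, scipy 1.17.1 and matplotlib 3.10.9.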

Additional observations from a re-analysis of the deposited data

Results flagged for a closer look

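Of the groups of 4 mice whose values are reported, 76 were examined by Dixon's test at the 95% level, and 6 had a mouse set apart from the other 3. Some reported groups were not among the 76, such as Cyp4b1 in basal cells, Cyp2b10 in AT2 cells and mesothelium, and Fmo2 in peribronchial fibroblasts. The count of 6 thus depends on which groups were entered. Chance flags about 1 in 20 groups, or 3.8 of 76. CS mouse 1 stood above the other CS mice for Ephx1 in gCap cells (1.89, others 1.49 to 1.52), for Ephx1 in alveolar fibroblasts (1.095, others 0.680 to 0.744) and for Cyp2f2 in ciliated cells (35.4, others 26.3 to 27.5). Without this mouse, the Ephx1 difference in gCap cells was 0.44 (log2), and that of Cyp2f2 in ciliated cells 0.33 with a limma adjusted p of 0.0782. RA mouse 1 stood above the other RA mice for Cyp4b1 in AT1 cells (34.1, others 14.9 to 16.1), and without it the CS minus RA difference was -0.36 instead of -0.63 (log2). RA mouse 3 stood below the others for Fmo2 in AT1 cells (0.529, others 1.27 to 1.41) and above them for Fmo2 in ciliated cells (0.0944, others 0.0530 to 0.0571).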

How the results depend on the processing

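Of the 149 pairs of a member and a type, 4 passed in the reported fit. No pair passed with no filter on low genes (0 of 218, with 34 at an unadjusted limma p under 0.05) or with the lane as a replicate block (0 of 149, with 35 at an unadjusted limma p under 0.05). Leaving out 1 mouse gave 0 to 4 passing pairs, with 0 without CS mouse 4 (27 at an unadjusted p under 0.05), 1 without CS mouse 1, CS mouse 3 or RA mouse 2, and 2 without RA mouse 1 or RA mouse 4. Such unadjusted p were common among all genes. In gCap cells they numbered 4176 of 30479 with no filter, 2121 of 6556 with the lane block and 1643 of 6536 without CS mouse 4. In ciliated cells they numbered 3881 of 30822, 2377 of 11077 and 2001 of 11091, so nothing is read from the counts of pairs. Aldh1a1 in ciliated cells passed in 7 of the 8 fits that left out a mouse. Fmo2 and Por in AT1 cells passed without RA mouse 3, and Aldh1a1 in AT1 cells without RA mouse 4. The other settings gave 3 to 5 pairs. Summed UMIs and the filter of 25% each called Aldh1a1 and Fmo2 in AT1 cells but not Fmo2 in ciliated cells (limma adjusted p = 0.0637 with summed UMIs, not tested with the filter), and the pseudocount of 0.1 lost Cyp2f2 in ciliated cells (limma adjusted p = 0.0535). The 4 pairs kept their direction in each setting that tested them (Fmo2 in ciliated cells was below the filter of 25%). With the lane pairing as a block, adjusted p of the 4 pairs were 0.0549, 0.102, 0.0655 and 0.0948 (Aldh1a1, Cyp2f2, Fmo2 in ciliated cells, Cyp4b1 in gCap cells). The Ephx1 difference moved by more than the spread between mice with the pseudocount of 0.1, to 1.02 in aerocytes and 0.85 in gCap cells. It ranged from 0.56 to 0.68 in aerocytes and from 0.44 to 0.52 in gCap cells when 1 mouse was left out. Ephx1 was higher in 14 of 15 types, the 2 capillary types used in the choice included, and Cyp4b1 lower in 14 of 15 with a pseudocount of 0.1, summed UMIs, median centring, at least 10 cells and the lane block. With no filter the counts were 19 of 22 and 17 of 22, with the filter of 25% 14 of 14 and 10 of 10, and Ephx1 was higher in 13 of 15 without CS mouse 4 or RA mouse 3. The causes were not tested. With 4 mice a group, changes near the spread between mice cannot be seen.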
